A study of Mus musculus with 4 samples.

Results

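Hyaluronan synthesis and binding genes were followed in mouse embryo fibroblasts (MEFs) with and without stathmin, the microtubule-destabilizing protein encoded by Stmn1. The 8 genes, Has1, Has2, Has3, Hyal1, Hyal2, Vcan, Tnfaip6 and Cd44, were chosen by name, and every probe that the array files assign to them was used (Vcan appears there under its older symbol Cspg2). They were read by 17 of the 41174 probes on each array, and 14 probes of 7 genes passed the filter on dim signals, against 14993 named genes with a tested probe in all.

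On each of 4 Agilent 2-color arrays, RNA from STMN1-/- MEFs was hybridised together with RNA from STMN1+/+ MEFs, both of the C57BL/6 strain. The STMN1-/- RNA carried Cy3 on replicates 1 and 2 and Cy5 on replicates 3 and 4. Per the study's methods, cells came from single mid-gestation embryos of heterozygous matings, carried either an intact Stmn1 gene or an allele disrupted by a neomycin cassette, and were grown in serum-containing medium without further treatment. The labels do not tie an array to a cell line or an extract, so the p-values measure only how far the arrays spread, and that spread may be technical. The ratio of a whole culture cannot tell fewer cells of a type from less RNA per cell.

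The targeted gene was checked first. Stmn1 probe A_52_P319161 read 5115, 5863, 6076 and 7002 units of processed signal in STMN1-/- RNA and 24158, 27182, 26866 and 28540 in STMN1+/+ RNA, a 4.46-fold lower level (adjusted p = 0.00060). The other Stmn1 probe, A_51_P495641, was 1.31-fold lower (adjusted p = 0.018, but 0.066 to 0.078 without replicate 1, 2 or 3 and 0.052 by the methods' t-test), and the probes differed by 1.76 on the log2 scale (adjusted p = 0.015). The study states that a Stmn1 60-mer of this array also matches another gene region. It reports that qRT-PCR and western blotting found neither Stmn1 mRNA nor its protein in STMN1-/- MEFs. Of the fibroblast markers, 9 of 10 were higher in STMN1-/- MEFs and only Vim was lower. The 4 epithelial and the 4 mesothelial markers that could be tested were all lower. Of all genes, 13.4% were higher and 12.3% lower. In the macrophage, endothelial, cartilage and smooth muscle lists, given further on, only some of the tested markers passed. No array stood apart, with log2 ratios that correlated across probes at 0.689 and 0.703 within a dye orientation and at 0.445 to 0.489 between orientations.

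Hyaluronan is a long, unbranched polysaccharide that the Has enzymes make at the plasma membrane from UDP-glucuronic acid and UDP-N-acetylglucosamine and extrude into the matrix. Hyaluronidases cut it, versican binds it through its N-terminal globular domain to build the pericellular coat, and TSG-6, the product of Tnfaip6, links it to the heavy chains of inter-alpha-inhibitor. CD44 is the main cell surface receptor for hyaluronan and is joined to the actin cortex through ezrin, radixin and moesin. Fibroblasts are a major source of the polymer in connective tissue.

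The 60-mer sequences that carried the results are shown because several genes were read at more than one place. Each is the sense strand, 5′ to 3′, from the array files, with coordinates of build mm7. Of most probes 30 bases are shown, and of a Cd44 and a Vcan probe all 60 bases. Capitals mark AATAAA, the polyadenylation signal hexamer, searched on the sense strand only and held by 4.78% of all probes. The annotation of mm7 was not used here, so exons and untranslated regions were not assigned.
Tnfaip6 A_51_P315785, chr2:52063795-52063854, plus strand, bases 1 to 30: tgaatttcggcattctgccttttgtaacct
Cd44 A_52_P229536, chr2:102663537-102663596, minus strand, bases 1 to 30: cactgggatcttatcatcagataagcaggt
Cd44 A_52_P523459, chr2:102662297-102662356, minus strand, bases 1 to 30: gccaattgcttaggtatgtacaatgagttt
Cd44 A_51_P407053, chr2:102685050-102685109, minus strand, all 60 bases: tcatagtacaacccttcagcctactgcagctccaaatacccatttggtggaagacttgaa
Vcan A_52_P251703, chr13:86731633-86731692, minus strand, all 60 bases: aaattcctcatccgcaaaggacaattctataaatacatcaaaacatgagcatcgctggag
Vcan A_52_P1044655, chr13:86784841-86784900, minus strand, bases 1 to 30: cggcaggctttaggttgtctatgtaaatga
Vcan A_52_P168953, chr13:86800035-86805889, minus strand, bases 1 to 30: tgaaaggcatcttatggatgtgctcaacct
Has2 A_51_P213359, chr15:56729040-56729099, minus strand, bases 15 to 44: acacaccctgacAATAAAtgaaactaaaac

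Tnfaip6 was up-regulated, and both Cd44 probes with measurable signal were down-regulated. The most 3′ Vcan probe, A_52_P251703, was slightly up-regulated, a call lost under 7 of 15 alternative settings. The other Vcan probe well above background in both genotypes on all 4 arrays, A_52_P168953, did not pass (limma, adjusted p = 0.24). The Cd44 calls were lost under 5 and 3 alternatives. The probes for the synthases and the hyaluronidases did not pass the test. Of the 14 tested probes, 3 were higher and 2 were lower in STMN1-/- MEFs at an adjusted p under 0.05 (limma, Benjamini-Hochberg over 27724 probes). Of the 3, Vcan probe A_52_P1044655 was kept only through its STMN1-/- signal, as no array measured it well above background in STMN1+/+ RNA. Over all tested probes 22.3% passed, 11.2% higher and 11.1% lower, and the count of 5 in 14 is to be read against these shares. Of the 14 probes, 6 had the same sign on all 4 arrays, as did 46.2% of all probes with 4 values. The median log2 ratio of the 14 probes was 0.067, and that of all tested probes was -0.0022.

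**Figure D1:**
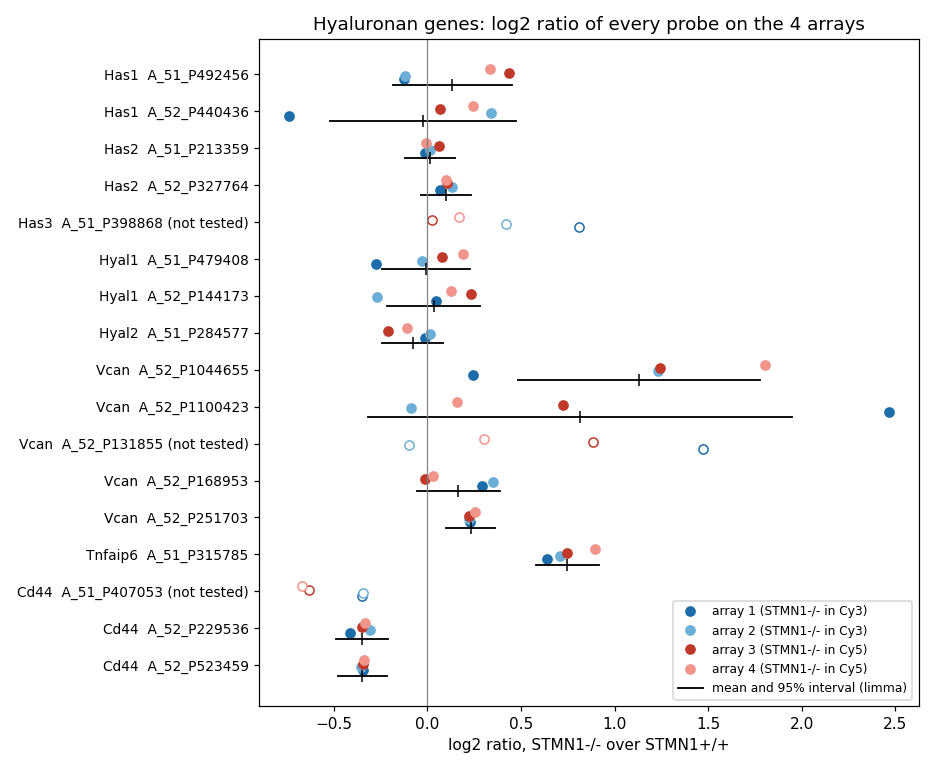
Log2 ratio of STMN1-/- over STMN1+/+ signal for each of the 17 probes. Each point is 1 array, blue with STMN1-/- RNA in Cy3 and red with it in Cy5, open where the probe was too dim to be tested, and the black line is the limma mean with its 95% interval. The Tnfaip6 points lie between 0.64 and 0.90, the points of both tested Cd44 probes between -0.42 and -0.31, and the points of dim Vcan probes are spread widely.

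None of the probes for the hyaluronan synthases passed the test. Has2 is the synthase that mesenchymal cells mainly use. Its probe A_51_P213359, the one that holds the AATAAA hexamer, read 8789, 9339, 12459 and 13773 in STMN1-/- RNA and 8868, 9240, 11937 and 13850 in STMN1+/+ RNA. Both genotypes were brighter on replicates 3 and 4 than on replicates 1 and 2, and within each array they lay close together. The mean log2 ratio was 0.014 ± 0.034 (SD, n = 4), with a 95% interval from -0.12 to 0.15 (adjusted p = 0.88). The second Has2 probe, A_52_P327764, lies 26164 bases upstream on the genome and read 5742, 6294, 6110 and 7297 in STMN1-/- RNA and 5485, 5750, 5679 and 6807 in STMN1+/+ RNA. It was higher in STMN1-/- RNA on all 4 arrays, with log2 ratios from 0.066 to 0.13 and a mean of 0.10 ± 0.027 (SD, n = 4), an interval from -0.033 to 0.23 and an adjusted p of 0.23. It passed by the methods' t-test once adjusted over all probes (adjusted p = 0.041). The difference between the Has2 probes, 0.086 on the log2 scale with A_52_P327764 the higher, did not pass the test (adjusted p = 0.75).

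Has1 is the synthase that needs high precursor levels. Its probe A_51_P492456 read 280.0, 278.0, 351.3 and 299.3 in STMN1-/- RNA and 305.7, 301.9, 259.6 and 237.3 in STMN1+/+ RNA. Its sign followed the dye, with a mean log2 ratio of -0.12 where STMN1-/- RNA was in Cy3 and 0.39 where it was in Cy5. The mean of the 4 arrays was 0.13 ± 0.30 (SD, n = 4; adjusted p = 0.50). The second Has1 probe, A_52_P440436, was well above background once, in STMN1+/+ RNA on replicate 1 at 230.8, and read 25.6 to 26.7 there on the other arrays. Its mean log2 ratio was -0.022 (adjusted p = 0.95), and without replicate 1 it was 0.22 (adjusted p = 0.19). Has3, a synthase of shorter chains, read 24.8 to 45.8 in STMN1-/- RNA and 22.6 to 26.1 in STMN1+/+ RNA and was not well above background in either on any array.

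None of the probes for the hyaluronidases, which cut the polymer, passed the test either. Hyal2, the membrane-anchored form that makes the first cut, read 63273, 61663, 50680 and 55200 in STMN1-/- RNA and 63905, 61020, 58647 and 59519 in STMN1+/+ RNA. Its mean log2 ratio was -0.080 ± 0.10 (SD, n = 4), with an interval from -0.24 to 0.085 (adjusted p = 0.43). It was near 0 with STMN1-/- RNA in Cy3 and at -0.16 with it in Cy5. Hyal1, the lysosomal form, was read by probes that share 50 of their 60 bases and are therefore not separate measurements. A_51_P479408 read 812.4 to 1166 in STMN1-/- RNA and 915.9 to 1191 in STMN1+/+ RNA, with a mean log2 ratio of -0.0095 ± 0.20 (SD, n = 4; adjusted p = 0.95). A_52_P144173 read 1239 to 1509 and 1143 to 1820, with a mean log2 ratio of 0.034 ± 0.22 (SD, n = 4; adjusted p = 0.84). The genotypes overlapped in both.

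Tnfaip6, the inflammation-induced hyaluronan-binding protein that remodels the coat, had the smallest adjusted p of the 14 tested probes. Its single probe read 3171, 3547, 3137 and 3947 in STMN1-/- RNA and 2034, 2168, 1869 and 2122 in STMN1+/+ RNA. The lowest STMN1-/- value lay above the highest STMN1+/+ value. The log2 ratios were 0.64, 0.71, 0.75 and 0.90, a mean of 0.75 ± 0.11 (SD, n = 4), with an interval from 0.58 to 0.92, and the gene was 1.68-fold up-regulated (adjusted p = 0.0029). It passed the test under every alternative setting tried, at a lower value of 0.50 on the log2 scale with normexp background correction and loess (adjusted p = 0.043).

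Cd44, the hyaluronan receptor, was down-regulated at both places where its signal could be measured. A_52_P229536 read 168967, 204514, 195698 and 235358 in STMN1-/- RNA and 225404, 253025, 249129 and 296425 in STMN1+/+ RNA. The genotypes overlapped across arrays, but STMN1-/- RNA was the lower on each of the 4 arrays, with log2 ratios of -0.42, -0.31, -0.35 and -0.33. The gene was 1.28-fold lower by this probe (mean -0.35 ± 0.046, SD, n = 4; adjusted p = 0.013). A_52_P523459, 1240 bases farther 3′, read 60982, 60804, 59801 and 62885 in STMN1-/- RNA and 77458, 77834, 76026 and 79704 in STMN1+/+ RNA, with no overlap. It was 1.27-fold lower (mean log2 ratio -0.35 ± 0.0062, SD, n = 4; adjusted p = 0.011).

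The A_52_P523459 oligo is printed 10 times on each array, which shows the error within an array. Of its 40 spots, 30 were usable and 10 were marked as outliers. All 30 usable spots were lower in STMN1-/- RNA, with log2 ratios from -0.51 to -0.19. The spots of an array share its RNA and dye, so they describe the printing and hybridisation error only. The probes A_52_P229536 and A_52_P523459 had a log2 difference of -0.0036, with an interval from -0.21 to 0.20 (adjusted p = 0.99). Leaving out single arrays gave adjusted p-values of 0.054 to 0.059 for A_52_P229536 and 0.050 to 0.057 for A_52_P523459, the latter under 0.05 only without replicate 1. With normexp and loess the mean of A_52_P229536 was -0.30 (adjusted p = 0.070).

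The third Cd44 probe, A_51_P407053, lies 22753 bases upstream of A_52_P523459. The array files match it to 2 RefSeq transcripts of Cd44, while they match each of the other probes to 3. CD44 pre-mRNA is known for a block of variable exons that are joined in many combinations, and the standard form holds none of them. The probe read 128.1, 89.3, 70.2 and 92.7 in STMN1-/- RNA and 163.3, 113.6, 108.7 and 147.4 in STMN1+/+ RNA, and was not well above background in either genotype on any array. It was lower in STMN1-/- RNA on each array, but no fold is given for values of this kind. It entered the test only where dim probes were kept (adjusted p = 0.038).

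**Figure D2:**
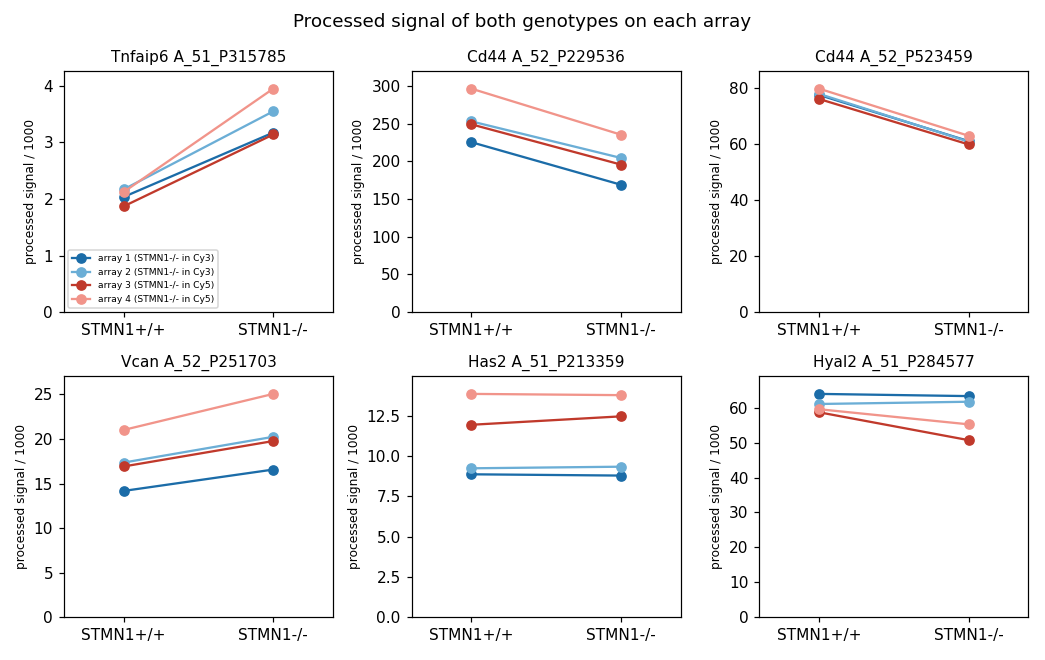
Processed signal, in kilo-units of the scanner software, in STMN1+/+ and STMN1-/- RNA for 6 probes with strong signal. Each line joins both genotypes on 1 array, and every panel has its own axis from 0. All 4 lines rise for Tnfaip6 and Vcan, all 4 fall for both Cd44 probes, and those of Has2 are nearly flat.

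Vcan, the large hyaluronan-binding chondroitin sulfate proteoglycan, was read by 5 probes, of which A_52_P251703 lies farthest 3′. It read 16572, 20243, 19768 and 25052 in STMN1-/- RNA and 14177, 17354, 16919 and 21010 in STMN1+/+ RNA. The genotypes overlapped across arrays and STMN1-/- RNA was the higher on each of the 4, with log2 ratios of 0.23, 0.22, 0.22 and 0.25. By this probe Vcan was 1.17-fold up-regulated, with an interval from 1.07 to 1.29 (mean log2 ratio 0.23 ± 0.015, SD, n = 4; adjusted p = 0.034). The call was lost when any array was left out (adjusted p = 0.11 to 0.12), with dim probes kept (0.096), with replicates paired 1 with 3 and 2 with 4 (0.051), and with normexp and loess, which gave a mean of 0.15 (adjusted p = 0.18).

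The other Vcan probes lie between 53208 and 76999 bases upstream of A_52_P251703. A_52_P1044655 read 132.1, 110.1, 163.5 and 187.8 in STMN1-/- RNA and 111.7, 46.9, 69.1 and 53.7 in STMN1+/+ RNA. It was well above background in STMN1-/- RNA on 2 of 4 arrays and in STMN1+/+ RNA on 0 of 4, so the STMN1+/+ value is only a bound. With STMN1+/+ values raised to the lowest signal that counted as measured on each array, STMN1-/- RNA was 1.33-fold higher. This is no firm bound, because STMN1-/- RNA was not well above background on every array either. The adjusted p of 0.035 (limma) is that of the log2 ratios of the signals as read. The probe was kept only through its STMN1-/- signal. Replicate 1 stood apart with a log2 ratio of 0.24, against 1.23 to 1.80 on the others. The call did not pass with the methods' t-test (0.13), with normexp and loess, which gave a mean of 0.094 on the log2 scale (0.34), with dim probes kept (0.065), with replicates paired 1 with 3 and 2 with 4 (0.063), or without replicate 2, 3 or 4 (0.11, 0.11 and 0.091).

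A_52_P168953 covers 5855 bases of the genome with its 60 bases, as a probe across a splice junction would. It read 686.4, 599.0, 567.0 and 527.1 in STMN1-/- RNA and 560.1, 470.7, 573.1 and 515.6 in STMN1+/+ RNA. The log2 ratio was 0.32 with STMN1-/- RNA in Cy3 and 0.0082 with it in Cy5, a mean of 0.16 ± 0.18 (SD, n = 4; adjusted p = 0.24). With the dye effect fitted as a second coefficient it passed (adjusted p = 0.035). A_52_P1100423 gave log2 ratios of 2.46, -0.090, 0.72 and 0.16, of which the highest rested on an STMN1+/+ signal of 24.8 on replicate 1 that was not above background (adjusted p = 0.25). A_52_P131855 read 35.6 to 103.2 in STMN1-/- RNA and 29.7 to 64.0 in STMN1+/+ RNA and was not well above background in either on any array. None of the 10 pairs of tested probes of a member gene passed the test of their difference by limma, 2 had an unadjusted p under 0.05, and 0.0721% of all 12478 such pairs passed. The 2 were A_52_P1044655 against A_52_P251703 and against A_52_P168953 (adjusted p = 0.24 and 0.28).

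**Figure D3:**
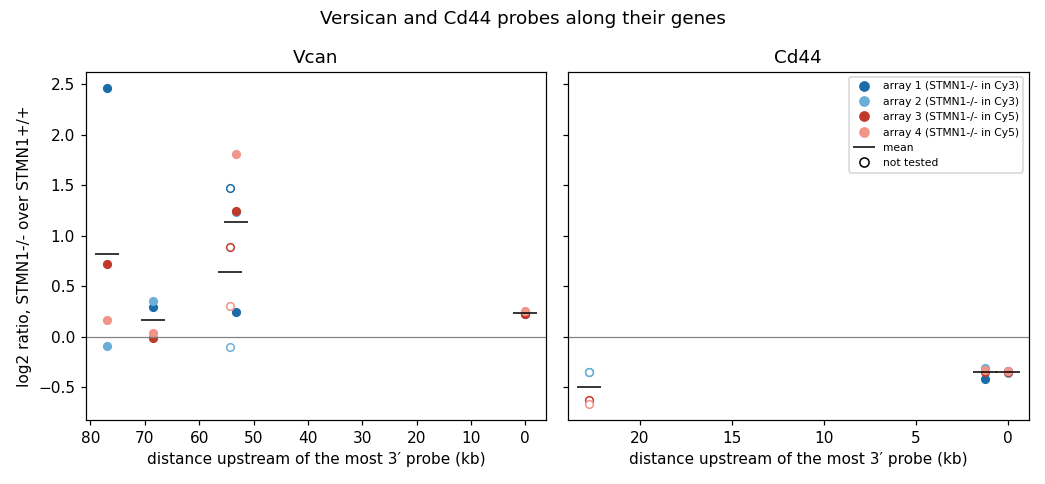
Log2 ratio of STMN1-/- over STMN1+/+ for the 5 Vcan and 3 Cd44 probes against their distance on the genome, in kb, upstream of the most 3′ probe of the gene. Points are arrays, open where the probe was not tested, and bars are means. The 3′ probes have tight points at 0.23 for Vcan and at -0.35 for Cd44, while the dim Vcan probes farther upstream scatter.

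The genes with the ratios most like those of the up- or down-regulated members were sought over the 4 arrays, by Euclidean distance between log2 ratios. For Tnfaip6 they were St6galnac2 at a distance of 0.086, Bicc1 at 0.12 and Gpr153 at 0.12. For Cd44 probe A_52_P229536 they were Aspm at 0.048, Erlin1 at 0.052 and Nrn1 at 0.067. A search of so many genes over 4 ratios always finds near ones, and shared regulation was not tested. For Vcan the rule took A_52_P1044655, which no array measured well above background in STMN1+/+ RNA, so that its ratios are not exact and its distances to Snhg11 (0.52), Trim30b (0.59) and Pcdhb14 (0.70) say little.

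Other genes of the pathway were taken from 7 lists, with a gene read by its brightest probe. Of 85 listed genes 75 were tested, while 9 were dim and 1 had no probe under its name. In STMN1-/- MEFs 20 were up-regulated (26.7%), 14 were down-regulated (18.7%) and 41 did not pass, beside 13.4% up and 12.3% down among all genes. Their median log2 ratio was 0.090, against 0.0058 over all genes. The lists were chosen with earlier results of these data known, so these shares are no test of the pathway. With normexp and loess, Slc35d1, Ncan, Hapln1, Acan, Ambp, Itih2, Itih5, Tlr4, Hmmr, Mmp9 and Ank2 of the genes described next no longer passed (adjusted p from 0.062 to 0.17), and 20 of the 75 passed in all. Gfpt1, Acan and C1qbp did not pass without any 1 of the arrays (adjusted p from 0.090 to 0.12, from 0.059 to 0.080 and from 0.057 to 0.093). Itih5 did not without replicate 1, 2 or 3 (0.051 to 0.056), nor did Hmmr without replicate 1 (0.056) or 3 (0.076). By the methods' t-test Acan, Ambp, Itih2, Itih5, Hmmr, C1qbp and Ank2 did not pass (adjusted p from 0.052 to 0.085).

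Of 13 genes that make or carry UDP-sugars or their precursors, 1 was higher and 2 were lower. Ugdh, which makes UDP-glucuronic acid from UDP-glucose, was 1.69-fold lower (adjusted p = 0.0019), with log2 ratios from -0.84 to -0.71 over the arrays. Slc35d1, a transporter of UDP-glucuronic acid, was 1.41-fold lower (adjusted p = 0.0077). Gfpt1, the rate-limiting enzyme of the hexosamine pathway, was higher by 0.26 on the log2 scale (adjusted p = 0.034). Gpi1, the brightest of the list, had a mean log2 ratio of -0.035 (adjusted p = 0.68).

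Among 7 tested genes of hyaluronan breakdown, 2 were higher and none was lower. Hexa, a lysosomal enzyme gene, was 1.68-fold higher (adjusted p = 0.0026). The hyaluronidase genes Hyal4, Hyal5, Hyal6 and Spam1 were dim, and Hyal3, Cemip, Cemip2 and Gusb did not pass.

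Of 6 tested link proteins and lecticans, relatives and partners of versican in hyaluronan aggregates, 3 were lower and none was higher. Ncan, neurocan, was 2.01-fold lower (adjusted p = 0.0015) and Acan, aggrecan, 1.33-fold lower (adjusted p = 0.021). Hapln1, the cartilage link protein, was well above background on 4 of 4 arrays in STMN1+/+ RNA and on 0 of 4 in STMN1-/- RNA, and was at least 1.90-fold lower (adjusted p = 0.0025). With normexp and loess the log2 ratio of Hapln1 was -0.16 and that of Ncan -0.47. Hapln3, the brightest, had a mean log2 ratio of -0.025 (adjusted p = 0.79). Acan and Hapln1 are also on the list of cartilage markers, of which 1 of 5 was higher and 2 were lower.

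The inter-alpha-inhibitor genes, whose heavy chains TSG-6 transfers to hyaluronan, split between directions, with 2 of 6 higher and 1 lower. Itih5 was 1.52-fold higher (adjusted p = 0.016), and Itih2 was 1.62-fold lower (adjusted p = 0.011). Ambp, which encodes the light chain bikunin, was well above background only in STMN1-/- RNA, on 2 of 4 arrays, and was kept only through that signal. With STMN1+/+ values raised to the lowest measured signal it was 1.25-fold higher. This is no firm bound, because STMN1-/- RNA was not measured on every array. The adjusted p of 0.0069 (limma) is that of the log2 ratios of the signals as read. With normexp and loess the log2 ratios were 0.18 for Ambp, -0.20 for Itih2 and 0.24 for Itih5. Itih4, the brightest, had a mean log2 ratio of -0.038 (adjusted p = 0.81).

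Among 11 tested receptors and other binding proteins, 2 were higher and 3 were lower. Dcn, decorin, a fibroblast marker as well, was 1.99-fold higher (adjusted p = 0.00099). Tlr4, an innate immune receptor that hyaluronan fragments can engage, was 1.46-fold lower (adjusted p = 0.0077). Hmmr, a hyaluronan receptor that also sits on the mitotic spindle, was 1.55-fold lower (adjusted p = 0.020), and C1qbp, a mostly mitochondrial protein that binds hyaluronan, 1.32-fold lower (adjusted p = 0.025).

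Of 18 tested partners of CD44, 5 were higher and 4 were lower. Ezr, ezrin, a linker of CD44 to actin, was 1.92-fold lower (adjusted p = 0.0016). Mmp9, the gelatinase that docks on CD44, was 1.75-fold higher (adjusted p = 0.0017), and Spp1, osteopontin, a ligand of CD44, was 1.48-fold higher (adjusted p = 0.0079). Ank2, an ankyrin, was 1.78-fold higher (adjusted p = 0.0093), with a log2 ratio of 0.83 that was 0.26 with normexp and loess.

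The list of versican proteases and pericellular matrix partners had the most genes that rose, 8 of 14, with 1 lower and a median log2 ratio of 0.48. Adamts15 was 3.48-fold higher (adjusted p = 0.0014) and Adamts4 2.24-fold higher (adjusted p = 0.00088), both proteases of versican and aggrecan. With normexp and loess both still passed, at lower log2 ratios of 0.64 for Adamts15 (adjusted p = 0.048) and 0.67 for Adamts4 (adjusted p = 0.044), against 1.80 and 1.17. Fbn2, fibrillin-2, was 2.11-fold higher (adjusted p = 0.0013) and Fbln2, fibulin-2, 1.36-fold higher (adjusted p = 0.0083).

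Markers of other cell types were read as well, and their lists differed in direction. Mesothelial markers were lower in 4 of 4 genes tested, with a summed signal of 26489 to 30765 in STMN1-/- RNA and 45251 to 49623 in STMN1+/+ RNA, and Msln was at -0.85 on the log2 scale. Epithelial markers were lower in 4 of 4 genes tested, with a summed signal of 44875 to 51883 against 56313 to 64120. Cdh1, E-cadherin, was not well above background in STMN1-/- RNA and was at least 3.65-fold lower there, and Epcam was dim in both genotypes. Macrophage and leukocyte markers gave 2 higher and 1 lower of 6, and Ptprc, their defining gene, had a log2 ratio of 0.27 that did not pass (adjusted p = 0.067). Endothelial markers gave 1 higher and 1 lower of 3 tested, and smooth muscle markers 1 higher and 0 lower of 4. The part of other cell types in the ratios of Cd44, Tnfaip6 and the listed genes was not tested.

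**Figure D4:**
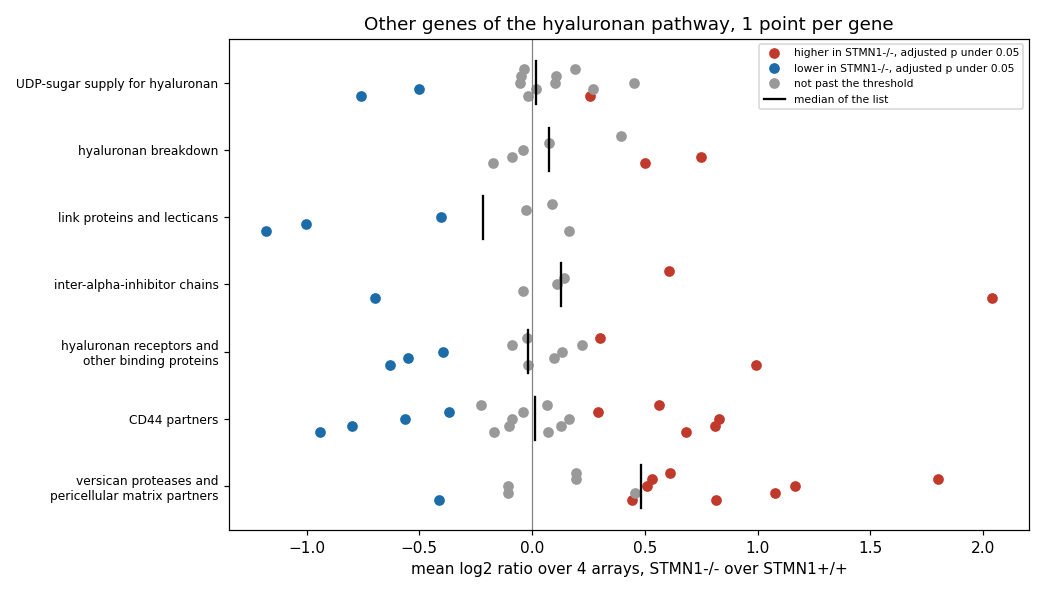
Mean log2 ratio of STMN1-/- over STMN1+/+ over 4 arrays for each tested gene of the 7 pathway lists, red where higher and blue where lower at an adjusted p under 0.05, with the list's median as a black bar. The link protein and lectican list has a median of -0.22, and the list of versican proteases and matrix partners one of 0.48.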

How the data were processed

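RNA of STMN1-/- and STMN1+/+ MEFs was compared on 4 dye-swapped Agilent arrays. Per the file headers, the deposited intensity values come from Agilent Feature Extraction, version 9.5.3.1, with which the authors subtracted background, normalized the dyes by LOWESS and replaced dim spots by surrogates. The same program gave the deposited log10 ratio column. The 2 deposited lists of probes selected by the authors' own test were not used. After removal of outlier spots, spots of a probe were averaged, and processed signals were turned to genotypes by the dye labels. Of 41174 probes, 27759 were kept because at least 1 channel of 1 array was well above background, and 27724 of these had values. The number of arrays limits the precision. The test was limma (3.58.1, R 4.3.3, package data.table in version 1.17.8) of log2 ratios against 0 with Benjamini-Hochberg adjustment at a threshold of 0.05, also for differences between probes of a gene. Tables and figures used Python 3.11.15, pandas 2.3.3, numpy 2.4.6 and matplotlib 3.10.9. RefSeq accessions, symbols and synonyms named the probes. For a group below background, a fold is given against the lowest signal among probes well above background. It is a bound only where the other genotype was well above background on all 4 arrays, as for Hapln1 and Cdh1. The scripts were tested on simulated data with the spread of the real probes and 50 changed probes at each fold, fewer than passed here. There the test recovered 4% of 1.2-fold, 58% of 1.5-fold, 74% of 2-fold and 98% of 4-fold changes. A probe that did not pass may therefore still differ between the genotypes, for some probes even by 2-fold.

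Named genes are all probes of the 8 members, both Stmn1 probes, of each list up to 4 that passed with the smallest adjusted p plus the brightest, and the 3 genes nearest to each of 3 members. Msln, Cdh1, Epcam, Vim, Ptprc, Adamts5 and Adamts20 were named after their values were seen, as were the genes given only as dim or as not passing. Single listed genes are counted but not reported here by name. The members, lists and tests were chosen with earlier results of these data known. All arrays lie on 1 slide and were scanned once, so no batch could be fitted. The alternatives were normexp (offset 50) followed by loess, the log10 column in place of the signals, centring on the median, scaling of the arrays to each other, all probes without a filter, a filter asking for signal above background on all 4 arrays, use of outlier spots, a coefficient for the dye, both ways to pair swapped arrays, the methods' t-test, and leaving out each array.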

Additional observations from a re-analysis of the deposited data

Results flagged for a closer look

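In 3 of the 45 log2 ratios checked for members, Stmn1 and listed genes, 1 array of the 4 lay apart from the others, beyond the 95% critical value of Dixon's test, which chance exceeds in about 1 of 20 groups. Vcan probe A_52_P251703 was at 0.25 on replicate 4, against 0.22 to 0.23 on the others. Itih5 was at 0.96 on replicate 4, against 0.47 to 0.52. Ambp was at 1.09 on replicate 1, against 2.35 to 2.36, but in STMN1+/+ RNA it was measurable on 0 of 4 arrays, so these ratios are not exact and say nothing of that array.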

How the results depend on the processing

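Each log2 ratio pairs the genotypes within an array, so the test is paired by array and no further block was fitted. Of all tested probes 6176 passed, against 2133 with normexp and loess, 3838 with dim probes kept, 3857 by the methods' t-test, 10711 with a dye coefficient and 2788 to 3176 with an array left out. Of the 14 member probes 5 passed, against 2 with normexp and loess, 3 with arrays paired 1 with 3 and 2 with 4, and 1 to 3 with an array left out. With the filter on all 4 arrays 4 of 11 member probes passed, 2 higher and 2 lower. With dim probes kept 4 of 17 passed, 1 higher and 3 lower. Tnfaip6 passed under all 15 alternatives and Cd44 probe A_52_P523459 under 12, all but the omission of replicate 2, 3 or 4. Of the 75 pathway genes 34 passed, against 20 with normexp and loess and 21 by the methods' t-test. Of the probe pairs 9 passed, against 61 with normexp and loess, 2 with a dye coefficient and 0 by limma without any single array, where 1220 to 1295 had an unadjusted p under 0.05. The cause of these shifts was not tested. No result past the threshold changed sign. Among those that did not pass, leaving out an array moved Has1 probe A_52_P440436 between -0.14 and 0.22, Has2 probe A_51_P213359 between -0.0019 and 0.023, Hyal1 probes A_51_P479408 between -0.076 and 0.079 and A_52_P144173 between -0.032 and 0.14, and Itih4 between -0.14 and 0.023 on the log2 scale, and normexp with loess put Itih4 at 0.0091. Signals not well above background limit Has1 probe A_52_P440436, Has3, Vcan probes A_52_P1044655, A_52_P1100423 and A_52_P131855, and Cd44 probe A_51_P407053.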
